A study of Mus musculus with 15 samples.

Results

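The ADAM genes encode membrane-anchored proteins with a metalloprotease-like domain and a disintegrin domain. Many mammalian members are transcribed mainly in male germ cells, and their proteins travel on the sperm surface, where they take part in sperm migration through the oviduct and in contact with the egg coat. Some members keep the histidines and the glutamate that hold zinc in an active protease, and others have lost them and serve as adhesion or assembly partners. ADAM1A and ADAM1B each pair with ADAM2 to form the complexes known as fertilin. ADAM3 is known to reach the sperm surface only when ADAM1A, ADAM2 and dedicated chaperones of the endoplasmic reticulum are present.

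The 10 genes described here are Adam1a, Adam1b, Adam2, Adam3, Adam5, Adam18, Adam24, Adam25, Adam26a and Adam32, chosen by symbol through their Entrez gene IDs among the 23510 gene IDs of an RNA sequencing table of mouse testis. All 10 were in the table. The table holds 15 libraries in 5 groups of 3. Con is labelled as control with no agent named, and whether these testes were injected is not given. MNC received the vector control lentivirus with a control hairpin. The M1, M3 and M5 groups received lentivirus carrying a mix of short hairpin RNAs against the muscarinic acetylcholine receptor of that name. All groups were of the outbred ICR stock, and for the lentivirus groups the study's methods describe injection into the testes of pubertal males. Which cells of the testis took up the virus is not given, so each library mixes cells that did and did not. Nothing says that the 3 libraries of a group came from separate mice, so p-values measure the spread between these libraries, which may be technical.

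Values are FPKM, fragments mapped to a gene scaled by its length and by how many fragments the library had in all. The absolute depth is unknown. A relative depth taken from genes of low level ranged from 0.983 to 1.04, but only genes with nearly equal low values entered it. It could therefore not show a large difference, and relative depth is unknown too. The transcripts of the targeted receptors, Chrm1, Chrm3 and Chrm5, lay between 0.01 and 0.43 FPKM in every library, too low to check the group labels. The germ cell character of the libraries was clear from summed marker levels, which ranged from 1073 to 1395 FPKM for 10 round spermatid genes and from 13530 to 36430 FPKM for 11 elongating spermatid genes. The library M5 replicate 3 stood apart, with the highest summed Sertoli, Leydig and macrophage markers of the 15 (749, 3137 and 298 FPKM). Epididymal markers summed to 21.9 to 50.3 FPKM in Con, to 3.48 to 35.1 in M3 and to at most 4.8 in the other groups.

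The 10 genes split into 2 structural classes. The zinc-binding consensus of an active ADAM protease, with its 3 histidines and 1 glutamate, is encoded in 5 of them, Adam1a, Adam1b, Adam24, Adam25 and Adam26a. In the other 5, Adam2, Adam3, Adam5, Adam18 and Adam32, none of these 4 residues is kept at the aligned place. The 33 coding bases of the site are shown because they separate the classes that the results below also compare. Capitals mark the codons of the 3 histidines and the glutamate, or the codons aligned to them, and the sequences are from GENCODE transcripts of GRCm38, written on the coding strand. Those that encode the consensus are the following.
Adam1a: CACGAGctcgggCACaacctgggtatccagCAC
Adam1b: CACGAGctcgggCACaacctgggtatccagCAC
Adam24: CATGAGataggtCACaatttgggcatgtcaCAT
Adam25: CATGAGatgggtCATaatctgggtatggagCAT
Adam26a: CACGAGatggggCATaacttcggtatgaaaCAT
Those that do not encode it are the following.
Adam2: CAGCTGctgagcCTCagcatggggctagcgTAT
Adam3: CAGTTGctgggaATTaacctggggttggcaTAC
Adam5: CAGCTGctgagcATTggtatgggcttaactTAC
Adam18: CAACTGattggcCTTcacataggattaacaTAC
Adam32: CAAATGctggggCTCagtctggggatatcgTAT

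The same split ran through gene structure. Transcripts of the 5 genes with the consensus had 1 or 2 exons, and those of the 5 without it had 19 to 22. The Adam1a and Adam1b sites were identical base for base, and the proteins translated from these transcripts shared 73.0% of 752 aligned residues. Adam24 and Adam25 shared 51.6%, and Adam25 and Adam26a 51.0%. These 3 belong to the testases, ADAM proteases of spermatogenic cells.

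By RefSeq coordinates on GRCm38, 7 of the 10 genes lie on chromosome 8. Adam18 (chr8:24602246-24674755), Adam3 (chr8:24677232-24726377), Adam5 (chr8:24727093-24824369) and Adam32 (chr8:24836143-24948918) follow each other on the minus strand. Adam24 (chr8:40675077-40682199) and Adam25 (chr8:40752208-40756187) lie together on the plus strand, and Adam26a (chr8:43568273-43576707) on the minus strand. Adam1b (chr5:121500096-121503435) and Adam1a (chr5:121518604-121521695) are neighbours on the minus strand of chromosome 5, and Adam2 (chr14:66027322-66077851) is on chromosome 14. Some of the transcripts are hard to count apart. Of the 35-base stretches of the Adam1a and Adam1b transcripts, 31.7% and 33.2% also occur in the other of the pair. For Adam25, 43.3% occur in another gene, mostly Adam39, and for Adam26a 45.3%, mostly Adam26b. How the authors divided reads between such copies is not stated, so the levels of these 4 genes are uncertain to that extent. Adam24 shared 0.0351% of its stretches, and Adam2, Adam3, Adam5, Adam18 and Adam32 shared none. Gm42878, annotated as protein-coding on the same strand, covers 771 (22.1%) of the exon bases of Adam1a, and Gm45528 on the other strand covers 7.25% of those of Adam3. Adam1a and Adam1b also lie within the span of Tmem116 on the other strand, without overlap of exons. Whether the counting used strand is not stated.

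All 10 genes were well above the minimum mean of 1 FPKM used for testing. Adam3 (cyritestin, needed for sperm passage into the oviduct) and Adam5 were the most abundant, with means over the 15 libraries of 481.4 ± 37.1 FPKM (SD, n = 15) and 479.2 ± 30.4 FPKM (SD, n = 15). Adam3 was above Adam5 in 8 of 15 libraries, so their order is not resolved. Adam32 followed at 330.1 ± 32.1, Adam2 at 158.5 ± 20.4 and Adam1a at 85.3 ± 10.5, each in this order in 15 of 15 libraries. Adam1b (58.59), Adam25 (54.04), Adam24 (51.72) and Adam18 (51.43) had overlapping ranges, and each neighbour in that order was the higher in only 9 of 15 libraries. Adam26a was the lowest at 20.4 ± 3.91 FPKM. FPKM is scaled by length, which lets levels of different genes be set side by side. For Adam1a, Adam1b, Adam25 and Adam26a this is limited by the unknown division of reads shared with other genes. The same limit holds for sums and shares that include them.

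The 4 most abundant genes all lacked the zinc consensus. The 5 genes with it supplied 12.7% to 16.8% of the summed FPKM of the 10. Together the 10 genes held 0.319% to 0.383% of all FPKM and 86.4% to 90.1% of the FPKM of 35 ADAM genes in the table. Their sum was 1727 ± 21.5 FPKM in Con, 1721 ± 11.2 in MNC, 1763 ± 7.45 in M1, 1858 ± 77.6 in M3 and 1785 ± 180 in M5 (SD, n = 3 each). The sum in MNC differed from that in Con by -0.0047 on the log2 scale (exact permutation test, two-sided, p = 0.7, adjusted over 20 such tests 0.823). All FPKM summed to 470243 to 483232 in Con and to 500456 to 505654 in MNC. The share of the 10 genes in all FPKM was 0.359%, 0.369% and 0.36% in Con. In MNC the share was lower, at 0.346%, 0.341% and 0.341%, so this comparison depends on the scale used.

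**Figure D1:**
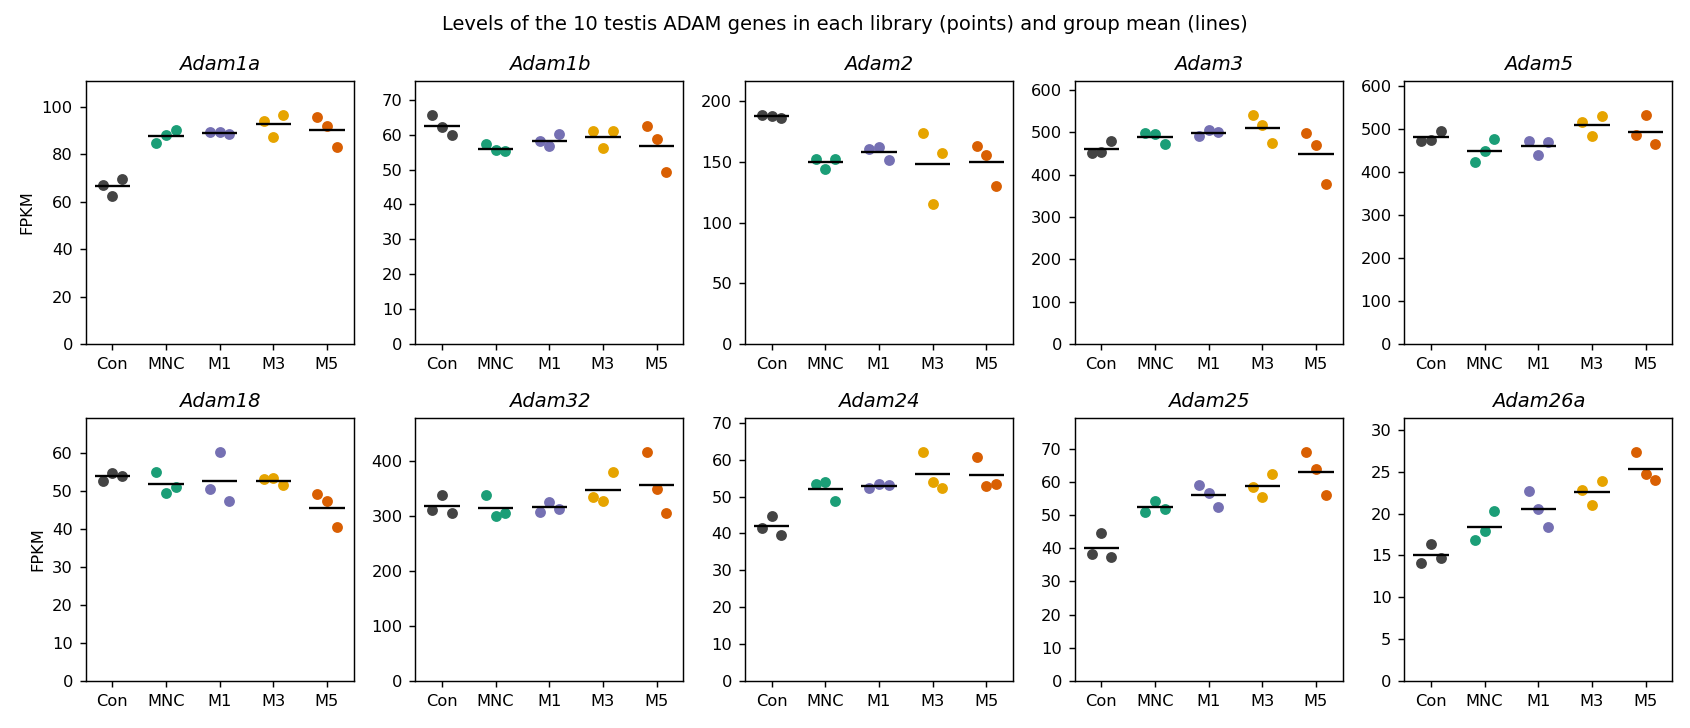
Level in FPKM of each of the 10 genes (vertical axis, from 0) in the 3 libraries of each group (points), with the group mean as a line. Adam1a, Adam24, Adam25 and Adam26a are lower in all 3 Con libraries than in the other 12, and Adam2 is higher in all 3.

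The comparison of MNC with Con shows how testes given the vector control virus differed from the control testes. Adam1a, Adam24 and Adam25 rose and Adam2 fell. These 4 of the 10 genes were called by limma at an adjusted p under 0.05, beside 20.4% of the 14514 genes tested (1166 higher and 1801 lower in MNC). When each library was centred on its median, the split of all genes called was 1449 higher of 1869, and the same 4 genes were called in the same directions. Adam24 was not called without the filter on low values (adjusted p = 0.0523), nor Adam2 with all 5 groups in one fit (adjusted p = 0.0718), and 3 of the 10 were called in each. The median difference of the 10 genes was 0.034 on the log2(FPKM + 1) scale, beside -0.095 for all genes tested.

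Adam1a, whose product pairs with ADAM2 in the fertilin needed for the surface delivery of ADAM3, was at 67.13, 62.56 and 69.83 FPKM in Con and at 84.76, 88.28 and 90.25 FPKM in MNC. The highest Con library was thus below the lowest MNC library. Its difference was 0.40 ± 0.06 (log2, SE) in MNC relative to Con, a 1.32-fold higher value (limma, adjusted p = 0.0175).

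Adam2, the common partner in both fertilin complexes, moved the other way. It was at 188.11, 187.62 and 186.16 FPKM in Con and at 152.11, 144.06 and 152.12 FPKM in MNC, with a wide gap between the groups. The difference was -0.32 ± 0.04 (log2, SE), a 0.799-fold value (limma, adjusted p = 0.0168). Con had the narrowest spread of all for this gene, with a coefficient of variation of 0.542%.

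Adam1b, whose product pairs with ADAM2 on the mature sperm surface, was at 65.5, 62.13 and 59.77 FPKM in Con and at 57.18, 55.5 and 55.34 FPKM in MNC. The 2 groups did not overlap, but the difference of -0.15 ± 0.05 did not pass the threshold (limma, adjusted p = 0.0693).

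Adam24 (testase 1), a protease linked to the block against polyspermy, was at 41.35, 44.81 and 39.55 FPKM in Con and 53.29, 53.9 and 48.77 FPKM in MNC, a difference of 0.30 ± 0.07 (log2, SE; limma, adjusted p = 0.0311). Adam25 (testase 2) was at 38.38, 44.69 and 37.45 FPKM in Con and 51.04, 54.14 and 51.69 FPKM in MNC, a difference of 0.38 ± 0.08 (adjusted p = 0.0271). In both genes every MNC library was above every Con library. Adam26a (testase 3) was at 14.14, 16.42 and 14.75 FPKM in Con and 16.88, 17.97 and 20.29 FPKM in MNC. Its groups also did not overlap, with a difference of 0.27 ± 0.09 that was not called (adjusted p = 0.0758).

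The 4 genes of the chromosome 8 row, which are not proteases by sequence, were not called. Adam3 was at 460.8 ± 15.8 FPKM in Con and 489.1 ± 14.5 in MNC (SD, n = 3 each), with a log2 difference of 0.09 (adjusted p = 0.218). Adam5 was at 480.8 ± 13.5 and 450.2 ± 26.4 FPKM, a difference of -0.10 (adjusted p = 0.245). Adam18 was at 53.92 ± 1.09 and 51.95 ± 2.93 FPKM, a difference of -0.05 (adjusted p = 0.475). Adam32 was at 317.8 ± 17.3 and 313.9 ± 20.7 FPKM, a difference of -0.02 (adjusted p = 0.855). For all 4 the libraries of the 2 groups overlapped, while for the other 6 they did not, beside 46.5% of all genes tested that did not. The signs of the last 3 turned under at least 1 rescaling of the libraries.

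**Figure D2:**
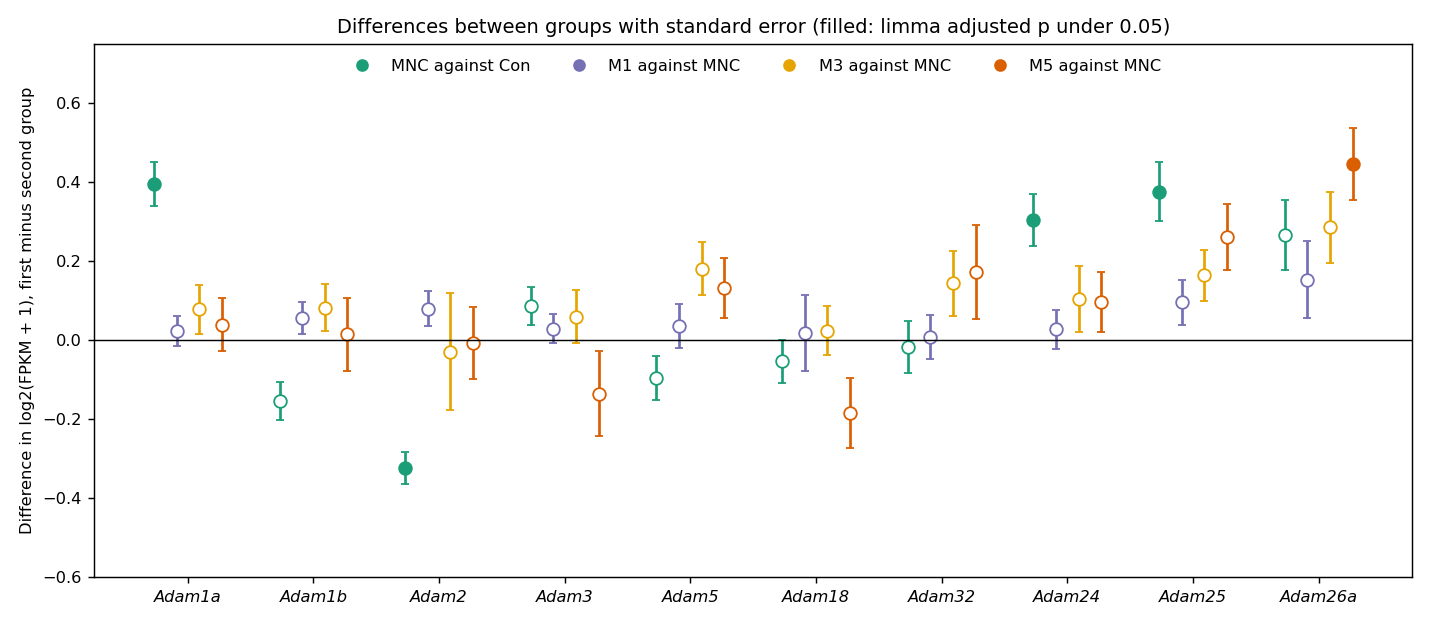
Difference in log2(FPKM + 1) between groups (vertical axis, first group minus second) for each of the 10 genes, with the standard error from limma as bars. Filled points passed an adjusted p under 0.05: Adam1a, Adam2, Adam24 and Adam25 in MNC against Con, and Adam26a in M5 against MNC.

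The calls in MNC against Con rested on few libraries. Leaving out 1 library at a time left between 0 and 3 of the 10 called, with none called without Con replicate 1, 1 without Con replicate 2, and 2 without Con replicate 3 or without MNC replicate 2. Without Con replicate 1 the whole table gave 8 calls in place of 2967. The size of the differences moved less, from 0.35 to 0.43 for Adam1a and from -0.34 to -0.30 for Adam2.

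Markers of germ cell stages differed between the same libraries. The counts below stand beside 8.03% of all genes tested called higher in MNC and 12.4% called lower, with a median of -0.095. Of 12 spermatocyte genes 6 fell and none rose in MNC relative to Con, with a median log2 difference of -0.29, among them Spo11 at -0.52, Sycp1 at -0.49 and Hormad1 at -0.44. Of 11 elongating spermatid genes 6 rose and none fell, with a median of 0.70, among them Smcp at 1.16, Odf1 at 0.96 and Oaz3 at 0.88. Of 10 round spermatid genes 3 rose, with a median of 0.15. The summed spermatocyte level was 879.2 to 913.9 FPKM in Con and 729.6 to 751.6 in MNC, and the summed elongating spermatid level was 13530 to 24980 FPKM in Con and 27220 to 33690 in MNC. The part of these markers in the ADAM differences was not tested, and in whole testis fewer cells of a type and less RNA per cell cannot be told apart.

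Among somatic markers, 2 of 9 Sertoli genes (Inha at -0.76 and Cldn11 at -0.36) and 2 of 5 peritubular genes (Acta2 at -0.47 and Cnn1 at -0.45) fell in MNC, and C1qb of 7 macrophage genes rose by 1.05. None of 6 spermatogonial and none of 6 Leydig genes was called. Hba-a1 fell by 1.45 among 5 red blood cell genes, and Crisp1 fell by 3.53 among 3 epididymal genes tested. Crisp1 was at 15.8 FPKM in Con and 0.03 FPKM in MNC. The part of these markers in the ADAM differences was not tested either.

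Relative amounts of the fertilin transcripts separated Con from every other library. The ratio of Adam1a to Adam1b FPKM was 1.02, 1.01 and 1.17 in Con and 1.48, 1.59 and 1.63 in MNC. Over all 12 libraries of the 4 lentivirus groups it ranged from 1.48 to 1.69. A ratio within a library does not depend on the library's total, though it does depend on how reads shared by the 2 genes were divided. The mean was 1.07 ± 0.0885 in Con, 1.57 ± 0.0768 in MNC, 1.53 ± 0.0532 in M1, 1.56 ± 0.0163 in M3 and 1.6 ± 0.0802 in M5 (SD, n = 3 each). MNC differed from Con by 0.56 on the log2 scale (exact permutation test, two-sided, p = 0.1, the smallest that 3 against 3 allows, adjusted p = 0.286). This p was fixed by the levels given above, since in MNC Adam1a lay above and Adam1b below all Con libraries. Against MNC, the 3 knockdown groups differed by between -0.03 and 0.03 in this ratio.

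The ratio of Adam1a to Adam2 was 0.357, 0.333 and 0.375 in Con and 0.557, 0.613 and 0.593 in MNC. The log2 difference was 0.73 (exact permutation p = 0.1, adjusted p = 0.286). The lowest value in any lentivirus library was 0.543. This gap and this p follow from the levels given above and are no further result. Adam1a lay above Con and Adam2 below Con in every lentivirus library. The ratio of Adam5 to Adam3 was 1.05, 1.05 and 1.04 in Con. In MNC it was lower, at 0.85, 0.906 and 1.01, a log2 difference of -0.18 without overlap (exact permutation p = 0.1, adjusted p = 0.286). Over all lentivirus libraries it reached up to 1.23 in M5 replicate 3, so that M3 and M5 libraries lay on both sides of Con. These ratios were chosen after the values of the genes had been seen.

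**Figure D3:**
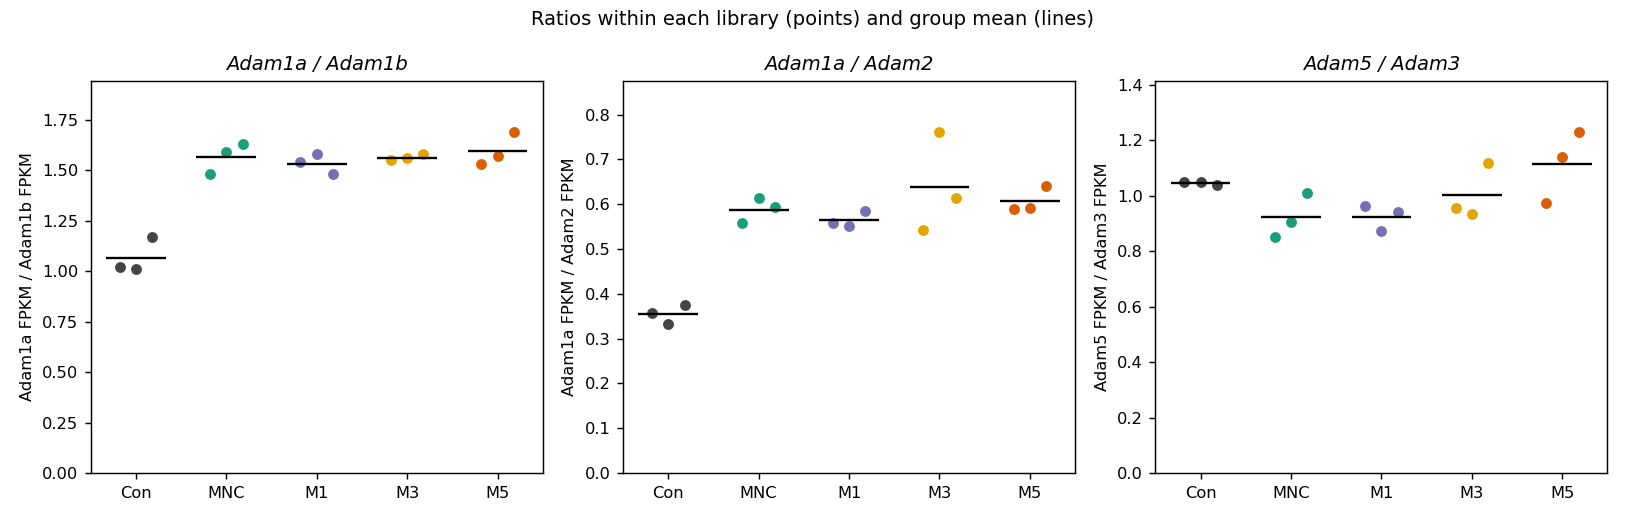
Ratios of FPKM between gene pairs within each library (vertical axes, from 0), with points for libraries and lines for group means. Adam1a over Adam1b lies between 1.01 and 1.17 in Con and between 1.48 and 1.69 in the 12 other libraries, while Adam5 over Adam3 in the 12 spans from 0.85 to 1.23 around the Con values of 1.04 to 1.05.

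The same Con libraries can be set against each knockdown group. Because these comparisons share Con, they are not independent of each other or of the one above. M5 against Con called 5 of the 10 genes (21.7% of all genes tested), M1 against Con called 5 (34.2%) and M3 against Con called 4 (22.1%). Adam1a, Adam24, Adam25 and Adam26a were higher in all 3 of these comparisons, and Adam2 was lower in M5 and M1. Adam1a was 1.35-fold higher in M5, 1.34-fold in M1 and 1.39-fold in M3. Adam25 was 1.55-fold higher in M5, 1.39-fold in M1 and 1.45-fold in M3. Adam26a was 1.64-fold higher in M5, 1.34-fold in M1 and 1.47-fold in M3.

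Adam2 in M3 was at 173.34, 114.94 and 157.24 FPKM, all below Con, but the low M3 replicate 2 widened the spread to a coefficient of variation of 20.3%. The difference of -0.35 ± 0.14 from Con was not called (limma, adjusted p = 0.11). In M1 it was at 160.14, 162.15 and 151.48 FPKM, a difference of -0.25 ± 0.04 (adjusted p = 0.0113).

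Across the 12 libraries of the 4 lentivirus groups, all values of Adam1a (83.15 to 96.47 FPKM), Adam24 (48.77 to 62.08), Adam25 (51.04 to 68.98) and Adam26a (16.88 to 27.37) lay above all 3 Con values. For 6.25% of all genes tested the 12 libraries lay above Con in this way. All values of Adam2 (114.94 to 173.34) lay below Con, as did 11.5% of all genes tested. The remaining 5 genes overlapped with Con.

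The comparison of M5 with MNC asks what the hairpins against the M5 receptor add to the vector control. Among the 10 genes only Adam26a was called, beside 5.65% of all genes tested. The M5 libraries held 27.37, 24.79 and 23.97 FPKM and those of MNC 16.88, 17.97 and 20.29 FPKM, so every M5 library was above every MNC library. The difference was 0.45 ± 0.09 (log2, SE), a 1.36-fold higher value (limma, adjusted p = 0.0446). Adam26b, the copy with which it shares most sequence, was at 7.16 FPKM in M5 and 6.2 FPKM in MNC, and was not called (adjusted p = 0.313).

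The call of Adam26a was narrow. It passed under 2 of 13 alternatives that kept MNC as the control, with adjusted p between 0.0102 and 0.249 and differences between 0.27 and 0.52. It was lost when any of the 6 libraries was left out.

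Adam25 was at 68.98, 63.97 and 56.14 FPKM in M5, again above all MNC libraries, with a difference of 0.26 ± 0.08 that was not called (adjusted p = 0.117). Without M5 replicate 3 it was called, with a difference of 0.34 and adjusted p = 0.0416. Adam18 was at 49.17, 47.42 and 40.52 FPKM in M5 and 55.21, 49.54 and 51.09 FPKM in MNC, a difference of -0.18 ± 0.09 (adjusted p = 0.254).

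Libraries of M5 and MNC thus did not overlap for 3 of the 10 genes, beside 32.1% of all genes tested. The other 7 genes overlapped. Adam1a was at 90.33 ± 6.49 FPKM in M5 and 87.76 ± 2.78 in MNC (adjusted p = 0.767), Adam1b at 56.84 ± 6.79 and 56.01 ± 1.02 (adjusted p = 0.943), and Adam24 at 55.72 ± 4.39 and 51.99 ± 2.8 (adjusted p = 0.482). Adam2 had a mean of 149.4 FPKM in both groups, with an SD of 17.4 in M5 and 4.65 in MNC (adjusted p = 0.974). Adam5 had a difference of 0.13 (adjusted p = 0.331) and Adam32 of 0.17 (adjusted p = 0.421).

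Adam3 was at 498.29, 468.48 and 377.64 FPKM in M5 and 498.79, 496.15 and 472.43 FPKM in MNC, a difference of -0.14 ± 0.11 (adjusted p = 0.484). M5 replicate 3 was the lowest of the 15 libraries for Adam3, Adam1b and Adam18. It was also the library with the highest summed Sertoli, Leydig and macrophage markers. Most of the tested ADAM genes of somatic tissues peaked in it. Adam8, Adam9, Adam10, Adam15, Adam17 and Adam23 were at their highest, while Adam11 was at its lowest (2.97 FPKM). Adam22 was at 2.08 FPKM, within the 1.95 to 2.36 FPKM of Con. Without M5 replicate 3 the differences of Adam3 and Adam18 were -0.02 and -0.10. M5 had the widest spread of the 5 groups over the 10 genes, with a median coefficient of variation of 10.2% against 3.33% to 6.18% in the others.

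Red blood cell markers were higher in M5, with Hba-a1 at 172 FPKM in M5 and 14.4 in MNC, and 3 of 5 genes called. The spermatocyte genes Sycp1 and Hormad1 rose by 0.79 and 0.70. Odf1 of 11 elongating and Acr of 10 round spermatid genes fell by 0.51 and 0.27. No gene of the other 6 marker lists was called. The part of these in the difference of Adam26a was not tested.

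M1 and M3 against MNC gave no call among the 10 genes. In M1 against MNC no gene of the table was called by limma (0.0%), while 862 had an unadjusted p under 0.05, none of them among the 10. All 10 differences were positive, from 0.0077 for Adam32 to 0.15 for Adam26a, and the lowest unadjusted p was that of Adam2, at 157.9 ± 5.67 FPKM in M1 and 149.4 ± 4.65 in MNC (difference 0.08, adjusted p = 0.827). The median of all genes in this comparison was -0.018.

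In M3 against MNC, 1 gene of the table was called (0.00689%) and 1369 had an unadjusted p under 0.05. Among the 10, Adam5, Adam25 and Adam26a had such a p. Adam5 was at 516.59, 483.87 and 529.72 FPKM in M3 and 424.11, 449.58 and 476.99 FPKM in MNC, a difference of 0.18 ± 0.07 (adjusted p = 0.518). Adam25 was at 58.31, 55.55 and 62.38 FPKM in M3, a difference of 0.16 ± 0.06, and Adam26a at 22.83, 20.99 and 23.95 FPKM, a difference of 0.29 ± 0.09 (adjusted p = 0.518 for each). The M3 libraries of these 3 genes lay above those of MNC without overlap, beside 17.1% of all genes tested that did not overlap in either direction. The genes were picked by their unadjusted p, and none passed the adjustment.

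M5 was also compared with the other knockdown groups directly. None of the 10 genes was called in M5 against M1 (6.75% of all genes tested) or in M5 against M3 (0.0138%). Adam26a was at 22.7, 20.52 and 18.45 FPKM in M1, below all M5 libraries (33.7% of all genes tested did not overlap), with M5 higher by 0.29 ± 0.09 (adjusted p = 0.106). Adam18 in M5 lay below all M3 libraries (53.18, 53.63 and 51.55 FPKM, beside 22.9% of all genes that did not overlap), with a difference of -0.21 ± 0.09 (adjusted p = 0.345). The call of Adam26a in M5 against MNC is therefore not shown to set M5 apart from M1 or M3.

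The 5 group means of Adam25 and of Adam26a fell in the same order, Con, MNC, M1, M3 and M5. For Adam25 they were 40.17, 52.29, 55.98, 58.75 and 63.03 FPKM, and for Adam26a 15.1, 18.38, 20.56, 22.59 and 25.38 FPKM. For Adam25, 3 of the 4 neighbouring pairs in the order overlapped, and for Adam26a 2 of 4. Con and MNC did not overlap in either gene, nor did M3 and M5 for Adam26a, where the highest M3 library was at 23.95 and the lowest M5 library at 23.97 FPKM. Of the neighbouring pairs compared, only Con and MNC for Adam25 passed the adjusted threshold. The order was picked out after the means had been seen, and how many other genes share it was not counted. The 2 genes also had an r of 0.94 over the libraries, so their shared order is not 2 separate observations.

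A test for any difference among the 5 groups called Adam1a (adjusted p = 0.00198), Adam26a (0.00259), Adam25 (0.00277) and Adam24 (0.00811), beside 33.6% of all genes tested (limma F test). Adam2 was not called in it (adjusted p = 0.122) unless M3 replicate 1 or M3 replicate 2 was left out. All 4 genes called encode the zinc consensus. The fifth gene that encodes it, Adam1b, had an adjusted p of 0.37, and the other 4 genes without it lay between 0.143 and 0.357.

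Of 13 further ADAM genes known from testis or epididymis, 11 passed the filter. In MNC against Con 3 of them rose and none fell, and Adam21, Adam34 and Adam4 were the 3. Of all genes tested, 8.03% were called higher and 12.4% lower. The median of the 11 was 0.20, beside -0.095 for all genes tested. Adam21 was at 8.03, 8.7 and 8.31 FPKM in Con and at 18.24, 19.18 and 16.36 FPKM in MNC, a difference of 1.02 ± 0.07 (limma, adjusted p = 0.00835). Adam34 was at 4.58 FPKM in Con and 7.4 in MNC (difference 0.59, adjusted p = 0.0162), and Adam4 at 24.8 and 31.8 FPKM (difference 0.35, adjusted p = 0.0237).

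The class split was weak outside the 10 genes. Of the 11 further genes that passed the filter, 10 had a transcript to examine. Of these 10, 6 encode the zinc consensus, of which 5 were higher in MNC than in Con, 2 called, with a median of 0.21. Among these 6 are Adam26b and Adam39, which hold 36.7% of the 35-base stretches of Adam26a and 37.8% of those of Adam25. Their levels may rest in part on the same reads as these members, so they are not separate counts. Of the 4 without the consensus 3 were higher, 1 called, with a median of 0.15. These 4, Adam4, Adam6a, Adam6b and Adam29, have transcripts of 1 or 2 exons. The 5 without the consensus among the 10 genes have 19 to 22, so class and exon number go together only among the 10. Adam28, which did not pass the filter, encodes the consensus in a transcript of 23 exons. Counting the 10 further genes together with the 10 that showed the split, 11 of 20 testis ADAM genes encode the zinc consensus. Of these 11, 9 were higher in MNC than in Con, with 5 called up, none called down and a median of 0.27. Of the 9 genes without it, 4 were higher, with 1 called up (Adam4), 1 called down (Adam2) and a median of -0.02. In 8 of the 11 all 12 lentivirus libraries lay above Con, and in 1 of the 9, beside 6.25% of all genes tested. The 8 include Adam1a, Adam24, Adam25 and Adam26a, which belong to the 10 that showed the split, and Adam26b and Adam39. Of all genes tested, 8.03% were called higher in MNC and 12.4% lower. Of the 11, Adam1b and Adam30 (-0.09) were the exceptions that were lower in MNC. These classes were compared with the differences already known, so no test was made.

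**Figure D4:**
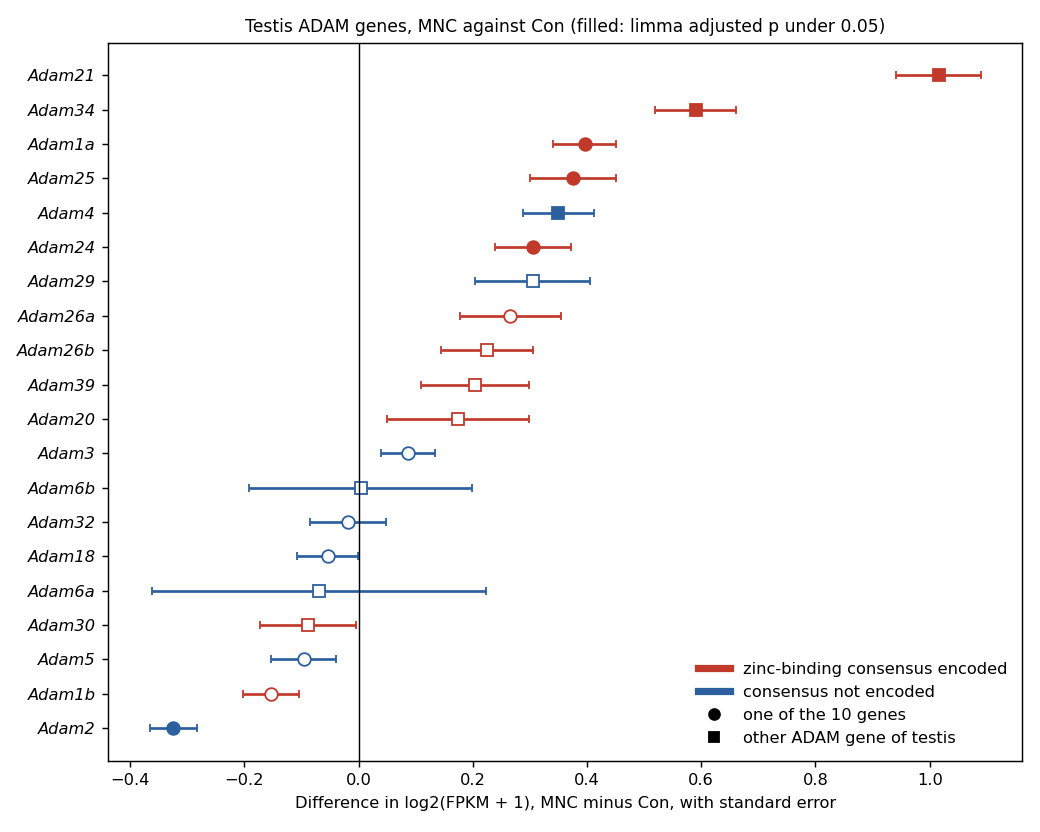
Difference in log2(FPKM + 1) between MNC and Con (horizontal axis, MNC minus Con) for 20 ADAM genes of testis, with the standard error from limma. Red marks genes that encode the zinc-binding consensus and blue those that do not, circles are the 10 genes described and squares are others, and filled symbols passed an adjusted p under 0.05; Adam21 is at 1.02 and Adam2 at -0.32.

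In M5 against MNC none of these 11 further genes was called, with a median of 0.08. Adam6a, Adam4 and Adam30, the 3 with the highest mean, differed by -1.86 (adjusted p = 0.147), 0.09 and -0.0019. Adam6a varied within groups, from 3.8 to 29.15 FPKM in M5 and from 24.62 to 53.66 FPKM in MNC, and Adam6b from 10.21 to 22.17 FPKM in M5 and from 19.27 to 33.82 in MNC. None was called in M1 or M3 against MNC or between M5 and M1 or M3. Adam7, a gene of the epididymis, was at 1.63, 6.83 and 1.29 FPKM in the Con libraries, at 0.06 to 1.71 FPKM in M3 and at 0.02 FPKM or less elsewhere.

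Of 12 ADAM genes of somatic tissues 8 passed the filter. Adam9 fell in MNC relative to Con by 0.38 (adjusted p = 0.0339), from 7.52 to 5.55 FPKM. Adam11 fell in M5 relative to MNC by 0.55 (adjusted p = 0.0345), from 5.01 to 3.09 FPKM, though its M3 values were also low at 3.14 to 4.22 FPKM. No other somatic ADAM gene was called in any of the 6 comparisons.

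The proteins that fold, process and deliver sperm ADAMs are encoded by a further list, of which 17 of 18 genes were in the table and all 17 were tested. In MNC against Con 2 rose and 4 fell, with a median of 0.04, beside 8.03% of all genes tested called higher and 12.4% called lower. Clgn, the chaperone calmegin required for assembly of fertilin, fell by 0.27 (314 to 260 FPKM, adjusted p = 0.0214). Tex101, a surface protein needed for the presence of ADAM3 on sperm, fell by 0.37 (175 to 135 FPKM, adjusted p = 0.0314). Tmprss12, a serine protease of germ cells, fell by 0.35 (adjusted p = 0.038). Prss37, a protease-like gene needed for mature ADAM3, rose by 0.38 (150 to 194 FPKM, adjusted p = 0.032), and Pcsk4, the proprotein convertase of spermatids, by 0.26 (adjusted p = 0.0328). In the same comparison in which Adam1a rose and Adam2 fell, the genes of this list thus went both ways.

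In M5 against MNC only Pcsk4 of the 17 was called. It was at 46.69, 48.01 and 50.49 FPKM in M5 and 65.01, 67.11 and 72.77 FPKM in MNC, a difference of -0.49 ± 0.06 (adjusted p = 0.0181). It was also lower in M5 than in M1, by 0.42 (adjusted p = 0.0196). Pcsk4 in M3 replicate 3 was at 50.51 FPKM, in the range of M5, while M3 replicates 1 and 2 were at 67.31 and 64.77. No gene of the list was called in M1 or M3 against MNC or in M5 against M3.

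The 10 genes did not vary as 1 block. Across the 15 libraries, which share group differences and scale, Adam25 and Adam26a had a Pearson r of 0.94 in log2(FPKM + 1), Adam24 and Adam25 of 0.887, and Adam1a and Adam25 of 0.875. Adam1b and Adam2 had an r of 0.726. Adam1a and Adam2 had the lowest, -0.503, and Adam1a and Adam1b had -0.278. After the group means were taken out, Adam1a had an r of 0.667 with Adam2 and of 0.632 with Adam1b, so their opposite course was between groups and not within them. Within groups Adam25 and Adam26a had an r of 0.749, Adam24 and Adam25 of 0.438, Adam1a and Adam25 of 0.322, Adam24 and Adam26a of 0.131 and Adam1a and Adam24 of -0.024, so most of these high values came from differences between groups. All of these are descriptions over 15 points.

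**Figure D5:**
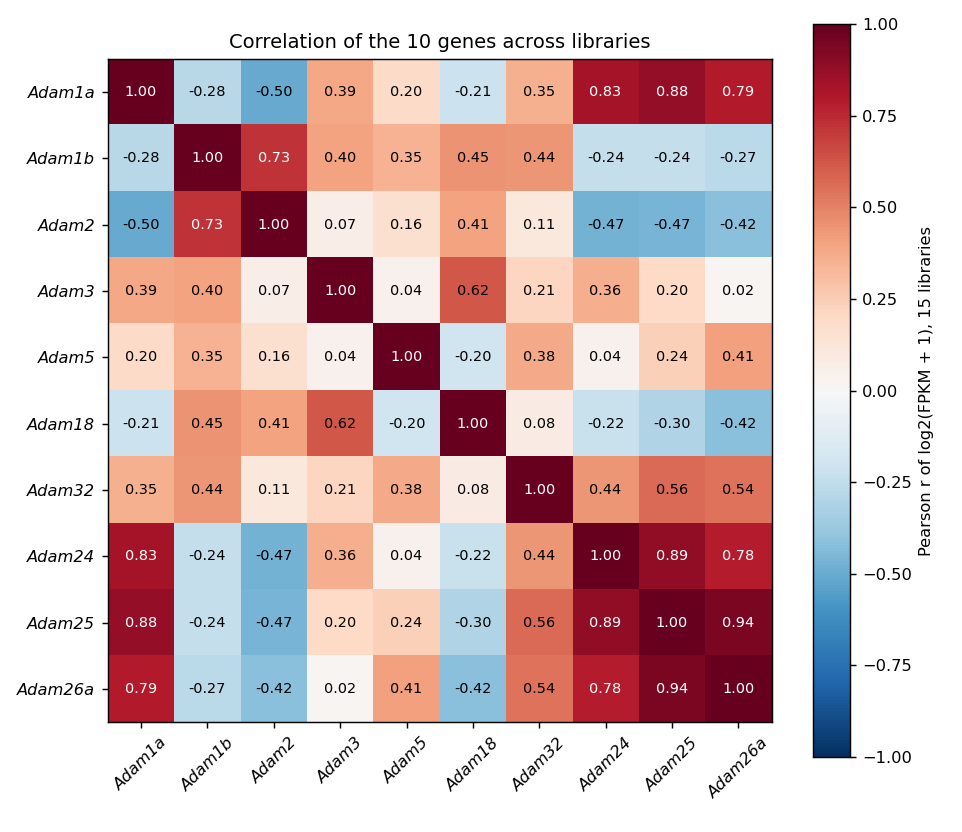
Pearson r of log2(FPKM + 1) over the 15 libraries for each pair of the 10 genes (rows and columns), as numbers and colour from -1 (blue) to 1 (red). Adam1a, Adam24, Adam25 and Adam26a have r from 0.784 to 0.94 with each other before group means are taken out, and Adam2 has negative r with each of them.

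The mean of the 10 standardised profiles was lowest in M5 replicate 3 (-0.938) and highest in M5 replicate 1 (0.943), so it followed single libraries more than groups. Of 9330 other genes with a mean of 5 FPKM or more, those most like it over the 15 libraries were Fbxo30 (Pearson r of 0.932), Hspa4l (0.911), Fhl4 (0.897), Asnsd1 (0.897) and Nsun7 (0.893). Hspa4l encodes a heat shock protein abundant in testis and Fhl4 a LIM-domain protein of testis.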

How the data were processed

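RNA sequencing of 15 mouse testis libraries was analysed. Titles give the tissue as testis, though the labels' extraction text speaks of sperm. M5 replicate 2 was mapped by its title, since its description points to the column of replicate 1. Per the study's methods, poly(A) RNA was sequenced and reads were mapped with SOAPaligner. The authors deposited FPKM values (named RPKM in the methods) with 2 decimals. The submitters' processing notes name mm10, and the annotation is not given in the sources used here. Counts of reads were not used, hence no count test could be run and the precision that depth gives is unknown.

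Values were analysed as log2(FPKM + 1), which understates changes of low genes. Genes with a mean of at least 1 FPKM (14514) were tested with limma 3.58.1 (lmFit, eBayes with trend) in R 4.3.3, 2 groups per fit, two-sided, in 6 comparisons and an F test over the 5 groups, with Benjamini-Hochberg adjustment over all genes and calls under 0.05. All 10 genes passed the filter. Ratios were compared by exact permutation tests (scipy 1.17.1). Scripts were tested on simulated data. Transcripts, coding sequences and exons came from GENCODE vM21, translated and aligned with biopython 1.88, and coordinates from RefSeq.

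All 10 genes are named. List genes are named where called (at most 5 per list and comparison by size of difference), and otherwise the 3 most abundant. The 5 genes most like the mean profile were taken by Pearson r. The 10 genes, the 3 gene lists and the 10 marker lists were chosen with earlier results of these data known. Alternatives were a pseudocount of 0.1, no filter, centring on the median, eBayes without trend, all 5 groups in one fit, a replicate block, Con in place of MNC, and leaving out each library. A GC correction was added once the data had been seen.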

Additional observations from a re-analysis of the deposited data

How the results depend on the processing

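Without the filter, with centring, with eBayes without trend, with the GC trend removed or with the replicate number as a block, 0 of the 10 genes were called in M5 against MNC in place of 1. The block also left 0 of 10 in MNC against Con in place of 4, when it called 10 genes of the table in place of 2967. Same-numbered libraries did not deviate together (r from -0.399 to 0.177 over the 6 comparisons), so the numbers were not taken as pairs. Leaving out 1 library gave 0 to 1 genes called in M5 against MNC, 0 to 3 in MNC against Con, and 4 to 5 in the F test. With Con as the control, 5 (M5), 5 (M1) and 4 (M3) genes were called, Adam1b turned to -0.14 in M5 and Adam2 to -0.25 in M1.

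The median of the 10 genes moved by more than the spread between replicates with centring, to 0.16 in M3 against MNC, 0.12 in MNC against Con, -0.027 in M5 against M1 and -0.13 in M5 against M3. With the GC trend removed it moved to -0.0015 in M5 against MNC, 0.13 in MNC against Con, -0.054 in M5 against M1 and -0.11 in M5 against M3. Leaving out 1 library put it between -0.082 and 0.025 in M5 against M3, the lowest without M3 replicate 2.

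Some differences that were not called changed sign. In M5 against M1 and M5 against M3, 2 and 3 of the 10 did so with centring (Adam1a and Adam24, and Adam2, Adam25 and Adam32) and 3 and 3 with the GC trend removed, as did Adam2 in M3 against MNC with centring. In the other comparisons those with centring were Adam1b in M5 against MNC (-0.023) and Adam18 (0.036) and Adam32 (0.072) in MNC against Con. There, with the GC trend removed, they were Adam1a (-0.005) and Adam24 (-0.064) in M5 against MNC, and Adam5 (0.011), Adam18 (0.043) and Adam32 (0.085) in MNC against Con. Among the differences in M5 against MNC and MNC against Con that changed sign when 1 library was left out, the ranges were -0.071 to 0.091 for Adam2, -0.0038 to 0.097 for Adam1a and -0.057 to 0.11 for Adam1b in M5 against MNC, and -0.072 to 0.026 for Adam32 in MNC against Con. The cause of these changes was not tested. The 4 genes called in MNC against Con kept their direction under all alternatives run. FPKM without counts gives no counting error, so depth limits cannot be stated.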
